A study of Mus musculus with 8 samples.

Results

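The 10 genes described here are Naip2, H60b, Prg2, Emb, Col6a4, Ptpn14, Eps8l1, Abhd2, Dhdh and Zfp429, which lie on 6 chromosomes of the mouse and whose level in splenic B cells differed between genotypes. They were picked by name from a table of 41249 genes because their read counts in these same 8 libraries followed genotype, so those counts are given below as a description, without a test. All 10 were among the 14744 genes that passed a filter on low counts. Of 4 genotypes, 3 carried a homozygous deletion at the 3' end of the immunoglobulin heavy chain locus on chromosome 12, where enhancers known as the 3'RR lie, and none of the 10 genes lies on that chromosome.

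The groups were B cells homozygous for the 3'RR deletion, for the hs3b-hs4 deletion or for the 3'PAL deletion, and wild-type B cells. The strain of every group, mutant and wild-type, is given in the labels as a mixed background written 129/C58BL/6. Cells were taken from the spleen on a Lympholyte gradient with removal of CD43-positive cells, and RNA came from resting cells or from cells stimulated with LPS at 5 µg/mL for 48 hours. Each genotype and state gave 1 library, made from a pool of 4 animals, so a level in 1 library has no replicate. The labels used here state no ages or sexes, and they do not say if the resting and stimulated cells of 1 genotype shared their animals. In such bulk samples, fewer cells of a type and less RNA per cell cannot be told apart.

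The 3'RR is known as a set of enhancers (hs3a, hs1,2, hs3b and hs4) that acts on heavy chain transcription and class switching in B cells. The genes described here are of varied function and lie outside that locus. Naip2 and H60b belong to innate defence, Prg2 to granule proteins, Emb and Col6a4 to the cell surface and matrix, Ptpn14 and Eps8l1 to growth and cytoskeletal signalling, Abhd2 and Dhdh to enzymes, and Zfp429 to nuclear zinc finger proteins.

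Total counts ran from 17883683 to 28785192 per library, so that a floor of 3 counts in a library was worth 0.104 to 0.154 CPM, the unit used below for counts after library scaling. The B cell markers Ms4a1 (CD20) and Cd79a, a subunit of the B cell receptor, were present in every library. Ms4a1 had 763 to 955 CPM in stimulated and 705 to 889 CPM in resting libraries, and Cd79a had 222 to 351 CPM in stimulated and 407 to 468 CPM in resting ones. Markers of some other cells covered wider ranges. Monocyte and macrophage markers summed to 1150, 503 and 255 CPM in resting 3'RR-deleted, hs3b-hs4-deleted and 3'PAL-deleted libraries, against 347 CPM in the resting wild-type library, and to between 2.77 and 8.53 CPM in all stimulated ones. Erythroid markers summed to between 10600 and 21400 CPM in resting mutant libraries and to 3070 CPM in the resting wild-type library. They summed to 157, 43.7 and 242 CPM in the stimulated 3'RR-deleted, hs3b-hs4-deleted and 3'PAL-deleted libraries and to 10.6 CPM in the stimulated wild-type library.

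The genes did not share a single pattern. Ptpn14 and H60b were high, and Zfp429 low, in hs3b-hs4-deleted and 3'PAL-deleted cells, with 3'RR-deleted and wild-type cells on the other side. Eps8l1 was below wild-type in every mutant, and furthest below it in 3'PAL-deleted cells in both states and in hs3b-hs4-deleted cells at rest. Emb was low in 3'RR-deleted and hs3b-hs4-deleted cells. Col6a4 was at or near 0 in 3'RR-deleted cells, Naip2 was highest there, and Abhd2 and Dhdh were highest in wild-type cells. Prg2 was high in the resting hs3b-hs4-deleted library alone. State was not without effect: 6 of the 10 genes (Naip2, H60b, Prg2, Col6a4, Ptpn14 and Abhd2) were lower in the stimulated than in the resting library of every genotype, so their levels followed state as well as genotype. For H60b in wild-type and 3'RR-deleted cells and for Col6a4 in 3'RR-deleted cells that difference was within counting error.

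**Figure D1:**
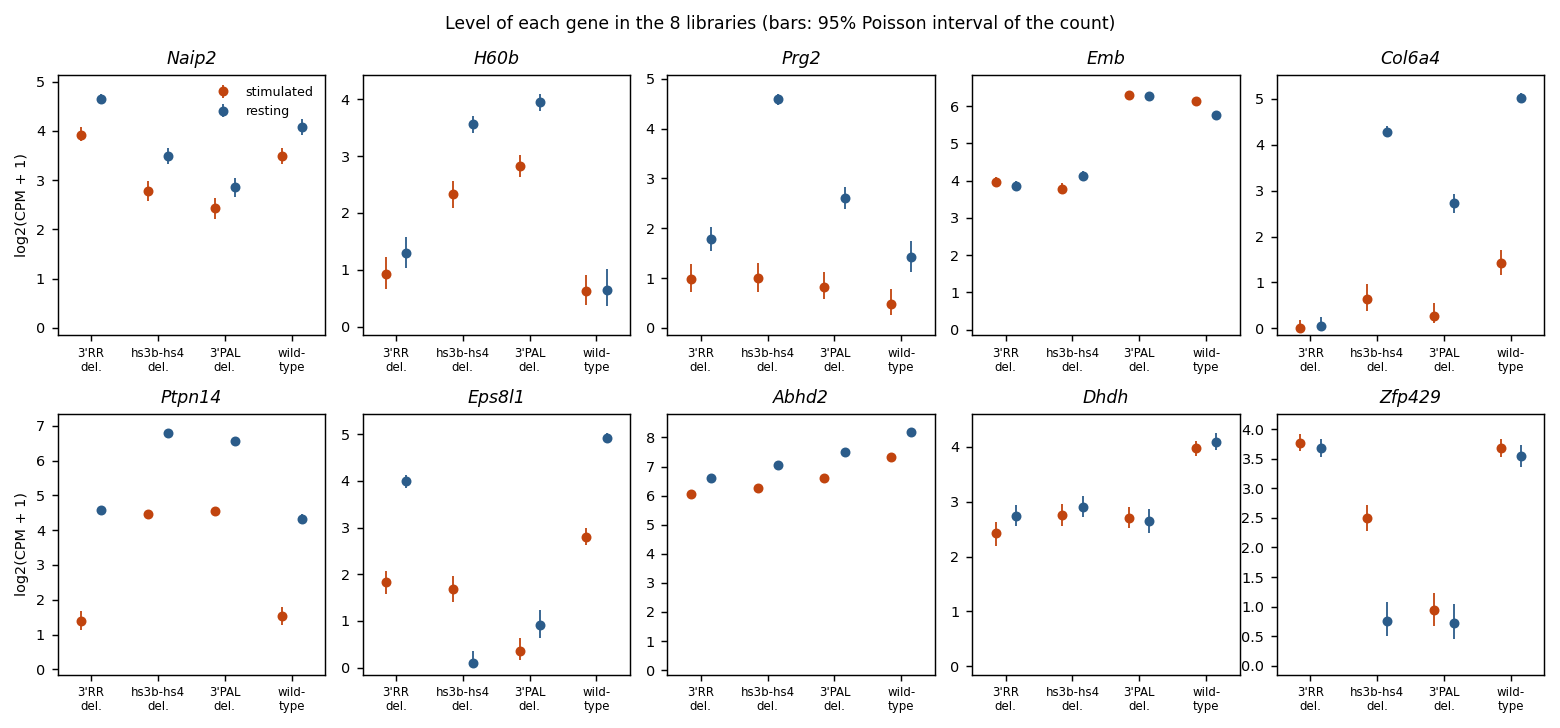
Level of each of the 10 genes as log2(CPM + 1) by genotype, with stimulated libraries in orange and resting libraries in blue; bars are 95% Poisson intervals of the count, covering counting error only, with 1 library per point. Emb at 78.2 and 76.0 CPM in 3'PAL-deleted cells and Zfp429 at 0.913 and 0.651 CPM in the same cells (stimulated and resting) keep their place in both states, whereas Prg2 stands out in a single library.

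How far genotypes stood apart whatever the state was described by a gap on log2(CPM + 1), the lower of both libraries of one genotype minus the higher of both of another, at its largest over pairs of genotypes. The gap was 2.75 for Zfp429, 2.31 for Emb, 2.18 for H60b, 1.89 for Eps8l1, 1.38 for Col6a4, 1.27 for Dhdh, 1.08 for Naip2, 0.73 for Abhd2 and 0.21 for Ptpn14. For Prg2 it was -0.43, since every pair of genotypes overlapped. A gap of at least 2 was reached by 3 of the 10 genes and by 69 of the 14744 tested genes (0.468%), and a gap above 0 by 9 of the 10 and by 33.0% of tested genes. Those 69 genes lay on 17 chromosomes, 5 of them on chromosome 12, and 44 carried clone or segment names. The gap follows from the same counts that chose the genes, so these shares only place them among the others.

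Promoters are shown for 4 of the 7 genes with a promoter entry, chosen to set beside each other what lies upstream of genes that were high in opposite genotypes (Ptpn14 against Zfp429 and Eps8l1) or near 0 in 1 genotype (Col6a4). Each runs from 250 bases before to 50 bases after the start in RefSeq (build GRCm38.p6), 5' to 3' on the strand of the gene. Capitals mark a GC box (GGGCGG) or a CCAAT box (CCAAT) on either strand, with no overlap between them. The first is chr1:189728018-189728317 on the plus strand (Ptpn14), the second chr7:4460447-4460746 on the plus strand (the first of 3 listed starts of Eps8l1), the third chr13:67399718-67400017 on the minus strand (Zfp429) and the last chr9:106096642-106096941 on the minus strand (Col6a4).
Ptpn14: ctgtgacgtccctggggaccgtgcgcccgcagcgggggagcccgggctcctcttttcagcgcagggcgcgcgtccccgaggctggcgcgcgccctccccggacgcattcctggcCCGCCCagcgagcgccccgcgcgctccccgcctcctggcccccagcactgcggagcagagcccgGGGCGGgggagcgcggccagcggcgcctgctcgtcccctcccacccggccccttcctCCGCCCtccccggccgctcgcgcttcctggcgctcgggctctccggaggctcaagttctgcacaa
Eps8l1: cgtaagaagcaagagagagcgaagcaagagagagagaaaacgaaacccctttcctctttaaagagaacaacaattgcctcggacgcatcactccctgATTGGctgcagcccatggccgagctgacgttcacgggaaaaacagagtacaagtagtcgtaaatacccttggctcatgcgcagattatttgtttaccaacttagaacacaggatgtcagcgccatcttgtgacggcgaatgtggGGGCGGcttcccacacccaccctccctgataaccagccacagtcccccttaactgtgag
Zfp429: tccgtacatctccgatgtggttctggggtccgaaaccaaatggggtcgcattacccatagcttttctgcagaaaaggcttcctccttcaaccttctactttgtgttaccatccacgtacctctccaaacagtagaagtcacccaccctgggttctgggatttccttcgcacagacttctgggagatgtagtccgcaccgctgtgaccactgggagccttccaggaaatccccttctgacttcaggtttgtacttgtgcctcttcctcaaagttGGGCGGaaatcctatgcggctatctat
Col6a4: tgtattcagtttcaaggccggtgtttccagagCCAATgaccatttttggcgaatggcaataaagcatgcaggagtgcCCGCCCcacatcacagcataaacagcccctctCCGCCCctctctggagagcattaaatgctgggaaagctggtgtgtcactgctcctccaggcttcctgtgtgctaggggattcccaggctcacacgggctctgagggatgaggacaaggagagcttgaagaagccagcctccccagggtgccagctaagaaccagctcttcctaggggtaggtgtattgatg

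Ptpn14 held 3 GC boxes in this window and 40 CG dinucleotides, a number reached by 3.91% of the 32851 promoters listed, whose median was 7. Eps8l1 held 1 GC box, 1 CCAAT box and 14 CG dinucleotides, Zfp429 held 1 GC box and 10 CG dinucleotides, and Col6a4 held 2 GC boxes, 1 CCAAT box and 5 CG dinucleotides. A GC box was present in 35.7% and a CCAAT box in 37.4% of all promoters. The octamer ATTTGCAT, known from immunoglobulin promoters and present in 1.74% of all promoters, and the letters TATAAA, present in 13.6%, were in none of these 4 windows on either strand. The GC box was thus present both in Ptpn14, high in 3'PAL-deleted cells, and in Zfp429 and Eps8l1, low there. A promoter was matched for 7 of the 10 genes, and not for H60b, Dhdh and Prg2.

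Naip2 (chr13:100144063-100202092, minus strand, 16 merged exons, GRCm38) encodes a cytosolic sensor of bacterial secretion system proteins that assembles the Nlrc4 inflammasome. It was highest in 3'RR-deleted and lowest in 3'PAL-deleted cells in both states. Stimulated cells had 14.2 CPM with the 3'RR deletion, 5.89 CPM with the hs3b-hs4 deletion, 4.39 CPM with the 3'PAL deletion and 10.2 CPM in wild-type. Resting cells had 24.2, 10.2 and 6.23 CPM with the 3'RR, hs3b-hs4 and 3'PAL deletion and 15.9 CPM in wild-type. The order of genotypes was the same in both states, with the stimulated level below the resting level throughout. The ratio of 3'RR-deleted to wild-type cells was 1.4 stimulated (95% interval 1.19 to 1.63) and 1.52 resting (1.33 to 1.75), and that of 3'PAL-deleted to wild-type cells 0.430 (0.345 to 0.532) stimulated and 0.392 (0.321 to 0.477) resting. All such intervals are exact conditional binomial ones and cover counting error only, not the spread between animals or cultures. Monocyte markers were also highest in the 3'RR-deleted library of each state, at 8.53 CPM summed in stimulated and 1150 CPM in resting cells, against 2.77 and 347 CPM in wild-type, and their part in the Naip2 levels was not tested.

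H60b (chr10:22158586-22288849, plus strand, 7 merged exons) encodes a surface ligand of the activating receptor NKG2D of NK and T cells. Its level was several times higher in hs3b-hs4-deleted and 3'PAL-deleted cells than in the other genotypes. Stimulated libraries had 0.909 CPM with the 3'RR deletion, 4.01 CPM with the hs3b-hs4 deletion, 6.11 CPM with the 3'PAL deletion and 0.539 CPM in wild-type. At rest the values were 1.46, 10.8 and 14.4 CPM with the 3'RR, hs3b-hs4 and 3'PAL deletion and 0.564 CPM in wild-type. Both libraries of the 3'PAL and hs3b-hs4 deletions lay above all 4 others, at 11.3-fold (6.68 to 20.7) and 7.44-fold (4.30 to 13.8) the wild-type level when stimulated and 25.6-fold (14.1 to 51.7) and 19.1-fold (10.5 to 38.7) at rest. By the transcript estimates the ratios to wild-type were smaller, 4.18 stimulated and 4.03 resting for hs3b-hs4-deleted cells and 7.39 stimulated and 5.30 resting for 3'PAL-deleted cells. The resting ratio of 3'RR-deleted cells, 2.59 (1.31 to 5.58) from the gene counts, was 1.13 by these estimates.

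H60b has 2 listed transcripts with starts far apart, and they behaved differently. The form that starts at position 22158586 had estimated counts of 17.0, 89.0 and 231 in stimulated 3'RR-deleted, hs3b-hs4-deleted and 3'PAL-deleted cells, against 8.99 in wild-type. At rest it had 84.2, 287 and 343 in the same mutants, against 27.2 in wild-type. The form that starts at position 22273346 had 28.5, 29.0 and 0.0 in these stimulated mutants, against 22.2 in wild-type, and 12.7, 29.4 and 46.7 in the resting mutants, against 31.8 in wild-type. Only the upstream form therefore followed the split of the gene counts in both states. Raet1e, another NKG2D ligand gene on the same strand, shares 133 exonic bases with H60b and had 0 to 7 counts per library.

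Prg2 (chr2:84980461-84983632, plus strand, 6 merged exons) encodes the major basic protein of eosinophil granules. Its high level was confined to 1 of the 8 libraries. Stimulated libraries had 0.985, 1.00 and 0.772 CPM with the 3'RR, hs3b-hs4 and 3'PAL deletion and 0.395 CPM in wild-type. At rest they had 2.43 CPM with the 3'RR deletion, 23.2 CPM with the hs3b-hs4 deletion, 5.09 CPM with the 3'PAL deletion and 1.69 CPM in wild-type. The resting hs3b-hs4-deleted library stood 13.7-fold (9.65 to 20.1) above the resting wild-type one, while the stimulated libraries of both genotypes differed 2.53-fold (1.20 to 5.71). The 8 eosinophil markers in the table, Prg2 not among them, summed to 62.3, 27.8 and 14.1 CPM in resting 3'RR-deleted, hs3b-hs4-deleted and 3'PAL-deleted cells, against 15.3 CPM in resting wild-type cells. Epx had 0 or 1 count and Ear1 had 0 counts in every library, and Ear6 and Siglec5 had at most 2 and 6. Prg3 had 63, 21 and 16 counts in resting 3'RR-deleted, hs3b-hs4-deleted and 3'PAL-deleted cells and 30 in resting wild-type cells. In the same order, Ccr3 had 1126, 389 and 193 counts and 123 in wild-type. Ear2 had 248, 118 and 41 counts and 43 in wild-type, and Il5ra 346, 191 and 95 and 98 in wild-type. Ccr3, Ear2 and Il5ra were thus higher in resting hs3b-hs4-deleted than in resting wild-type cells, but highest in resting 3'RR-deleted cells, unlike Prg2. Other marker sums were highest in the resting hs3b-hs4-deleted library among resting ones. Mast cell and basophil markers summed to 31.3 CPM there and to 25.5, 10.7 and 13.6 CPM in the resting 3'RR-deleted, 3'PAL-deleted and wild-type libraries. Of these 5 markers, 4 had 0 counts in the resting hs3b-hs4-deleted library, so its sum came from a single gene, against 2, 3 and 2 in the others. In the same order, plasma cell markers summed to 1810 CPM and to 1000, 1620 and 944 CPM, T cell markers to 62.6 CPM and to 53.9, 35.0 and 31.4 CPM, and NK cell markers to 10.8 CPM and to 4.77, 8.71 and 6.56 CPM. Only 1 of the 5 mast cell and basophil markers and 1 of the 5 NK cell markers passed the filter on low counts. The part of these cells in the Prg2 level was not tested.

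Emb (chr13:117220625-117274098, plus strand, 9 merged exons) encodes embigin, an immunoglobulin superfamily protein that brings monocarboxylate transporters to the cell surface. It was low in 3'RR-deleted and hs3b-hs4-deleted cells and high in 3'PAL-deleted and wild-type cells, with no overlap. Stimulated libraries had 14.6, 12.8 and 78.2 CPM with the 3'RR, hs3b-hs4 and 3'PAL deletion and 69.6 CPM in wild-type. Resting libraries had 13.5, 16.5 and 76.0 CPM with the same deletions and 52.9 CPM in wild-type. Relative to wild-type, the ratio was 0.209 (0.187 to 0.233) stimulated and 0.256 (0.227 to 0.288) resting in 3'RR-deleted cells, and 0.184 (0.163 to 0.208) stimulated and 0.312 (0.278 to 0.350) resting in hs3b-hs4-deleted cells. The additive fit over both states gave log2 differences from wild-type of -2.12 ± 0.183, -2.06 ± 0.184 and 0.33 ± 0.173 (SE) for the 3'RR, hs3b-hs4 and 3'PAL deletions. Gm17509 shares 333 exonic bases on the opposite strand and had 2 to 8 counts per library.

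Col6a4 (chr9:105989454-106096783, minus strand, 40 merged exons) encodes a chain of the microfibrillar collagen VI. It came closest to absence in a genotype. In 3'RR-deleted cells it had 0 counts stimulated and 1 count at rest. Stimulated, hs3b-hs4-deleted and 3'PAL-deleted cells had 0.561 and 0.211 CPM, against 1.69 CPM in wild-type. Resting, they had 18.5 and 5.62 CPM, against 31.4 CPM in wild-type. The stimulated 3'RR-deleted level was at least 14.9-fold lower than wild-type at the floor of 3 counts in that library, and the resting ratio was 0.00111 (2.8e-05 to 0.0062). The 3 other genotypes fell in the same order in both states. Endothelial and stromal markers, among them Col1a1 and Col3a1, summed to 147, 143 and 141 CPM in the resting 3'RR-deleted, hs3b-hs4-deleted and 3'PAL-deleted libraries, against 150 CPM in the resting wild-type one. In stimulated libraries, where Col6a4 was lower too, they summed to 71.6, 74.5 and 67.2 CPM in these mutants and 66.3 CPM in wild-type, and their part in the Col6a4 levels was not tested.

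Ptpn14 (chr1:189728268-189876695, plus strand, 20 merged exons) encodes a cytosolic tyrosine phosphatase that restrains the Hippo pathway effector YAP. It was high in hs3b-hs4-deleted and 3'PAL-deleted cells in both states. Stimulated libraries had 1.63 CPM with the 3'RR deletion, 21.2 CPM with the hs3b-hs4 deletion, 22.2 CPM with the 3'PAL deletion and 1.91 CPM in wild-type. Resting libraries had 22.7, 109 and 94.3 CPM with these deletions and 19.0 CPM in wild-type. The stimulated level of the high genotypes lay close to the resting level of the low ones, which is why the gap over both states was small. Stimulated ratios to wild-type were 11.1 (8.38 to 15.1) for hs3b-hs4-deleted and 11.7 (8.80 to 15.7) for 3'PAL-deleted cells, and resting ones 5.75 (5.15 to 6.42) and 4.96 (4.44 to 5.55). The 3'RR-deleted and wild-type cells differed by a ratio of 0.855 (0.558 to 1.30) stimulated and 1.19 (1.05 to 1.36) resting.

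Eps8l1 (chr7:4460674-4479404, plus strand, 22 merged exons) encodes a relative of the actin-binding signalling adaptor Eps8. It was highest in wild-type cells and did not keep its order of genotypes between states. Stimulated, it had 2.54, 2.21 and 0.281 CPM with the 3'RR, hs3b-hs4 and 3'PAL deletion and 6.00 CPM in wild-type. At rest it had 14.9 CPM with the 3'RR deletion, 0.0771 CPM (2 counts) with the hs3b-hs4 deletion, 0.895 CPM with the 3'PAL deletion and 29.3 CPM in wild-type. Every mutant lay below wild-type in both states. Only the 3'PAL-deleted cells were far below it in both, at 0.0468 (0.0199 to 0.0943) of wild-type stimulated and 0.0306 (0.0190 to 0.0467) at rest. The 3'RR-deleted cells were at 0.423 (0.314 to 0.565) stimulated and 0.508 (0.447 to 0.577) at rest. In hs3b-hs4-deleted cells the ratio to wild-type was 0.367 (0.266 to 0.501) stimulated and 0.00263 (0.000318 to 0.00955) at rest, where the transcript estimates gave 0.0136. Of the estimated counts, transcripts from the first of its starts, whose promoter is printed above, held 83.3% in stimulated and 76.7% in resting wild-type cells. In 3'RR-deleted, hs3b-hs4-deleted and 3'PAL-deleted cells they held 66.1, 80.2 and 11.1% stimulated and 79.6, 0.0 and 90.9% at rest. The stimulated 3'PAL-deleted and resting hs3b-hs4-deleted shares rest on 9 and 10 estimated counts.

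Abhd2 (chr7:79273201-79365508, plus strand, 12 merged exons) encodes a serine hydrolase that acts on monoacylglycerols. It showed a graded order that was the same in both states, lowest with the 3'RR deletion and highest in wild-type. Stimulated libraries had 65.2, 75.5 and 97.6 CPM with the 3'RR, hs3b-hs4 and 3'PAL deletion and 160 CPM in wild-type. Resting libraries had 95.7, 133 and 180 CPM with these deletions and 290 CPM in wild-type. Its intervals were the narrowest of the set because of its depth. The 3'RR-deleted level was 0.409 (0.386 to 0.432) of wild-type stimulated and 0.330 (0.315 to 0.346) resting, and the 3'PAL-deleted level 0.611 (0.583 to 0.641) stimulated and 0.621 (0.597 to 0.646) resting.

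Dhdh (chr7:45472956-45488805, minus strand, 8 merged exons) encodes dimeric dihydrodiol dehydrogenase, an oxidoreductase. All 3 mutants lay together below wild-type. Stimulated libraries had 4.36, 5.77 and 5.55 CPM with the 3'RR, hs3b-hs4 and 3'PAL deletion and 14.7 CPM in wild-type. Resting ones had 5.70, 6.51 and 5.29 CPM with these deletions and 16.1 CPM in wild-type. The ratios to wild-type ran from 0.296 to 0.392 stimulated and from 0.328 to 0.404 resting. They were nearer 1 in the transcript estimates, at 0.480, 0.539 and 0.558 stimulated and 0.504, 0.591 and 0.561 resting for the 3'RR, hs3b-hs4 and 3'PAL deletions.

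Zfp429 (chr13:67389309-67399767, minus strand, 5 merged exons) encodes a zinc finger protein and lies in a cluster of such genes. It had the widest gap between genotypes of the 10. Stimulated, 3'RR-deleted cells had 12.7 CPM, hs3b-hs4-deleted cells 4.65 CPM, 3'PAL-deleted cells 0.913 CPM and wild-type cells 11.9 CPM. At rest the values were 11.9, 0.694 and 0.651 CPM with the 3'RR, hs3b-hs4 and 3'PAL deletion and 10.7 CPM in wild-type. The 3'RR-deleted cells were level with wild-type, with ratios of 1.07 (0.919 to 1.25) stimulated and 1.11 (0.930 to 1.32) resting. The 3'PAL-deleted cells were at 0.0769 (0.0495 to 0.115) of wild-type stimulated and 0.0608 (0.0341 to 0.101) at rest. By the transcript estimates the resting ratios to wild-type were 0.136 for hs3b-hs4-deleted and 0.115 for 3'PAL-deleted cells, against 0.0648 and 0.0608 from the gene counts.

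Within a genotype, the difference between stimulated and resting libraries varied in size and in places in direction. Col6a4 in stimulated cells was 0.0303 (0.0164 to 0.0513), 0.0375 (0.0135 to 0.0837) and 0.0539 (0.0392 to 0.0726) of the resting level with the hs3b-hs4 deletion, with the 3'PAL deletion and in wild-type. Ptpn14 was between 0.0718 (3'RR deletion) and 0.236 (3'PAL deletion) of its resting level. By the transcript estimates Col6a4 was 0.0411, 0.0741 and 0.0827 of its resting level in these 3 genotypes, and H60b in wild-type was 0.401 of it, against 0.957 from the gene counts. Dhdh stayed between 0.764 (3'RR deletion) and 1.05 (3'PAL deletion).

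The hs3b-hs4-deleted libraries stood apart in this difference for Eps8l1 and Zfp429. Eps8l1 was 28.6-fold higher stimulated than resting in these cells (7.55 to 242, from 2 resting counts) and 6.14-fold higher by the transcript estimates, with 55 and 10 estimated counts, against gene count ratios of 0.171 with the 3'RR deletion, 0.314 with the 3'PAL deletion and 0.205 in wild-type. Zfp429 was 6.70-fold higher stimulated than resting in hs3b-hs4-deleted cells (4.06 to 11.7) and 3.35-fold by the transcript estimates, against gene count ratios of 1.07 (0.921 to 1.25) with the 3'RR deletion, 1.4 (0.724 to 2.80) with the 3'PAL deletion (0.675 by the transcript estimates) and 1.11 (0.929 to 1.32) in wild-type. With 1 library per genotype and state, a difference in response between genotypes has no test. The resting and stimulated pools may not have shared animals, so a response to LPS cannot be told apart from a difference between pools.

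**Figure D2:**
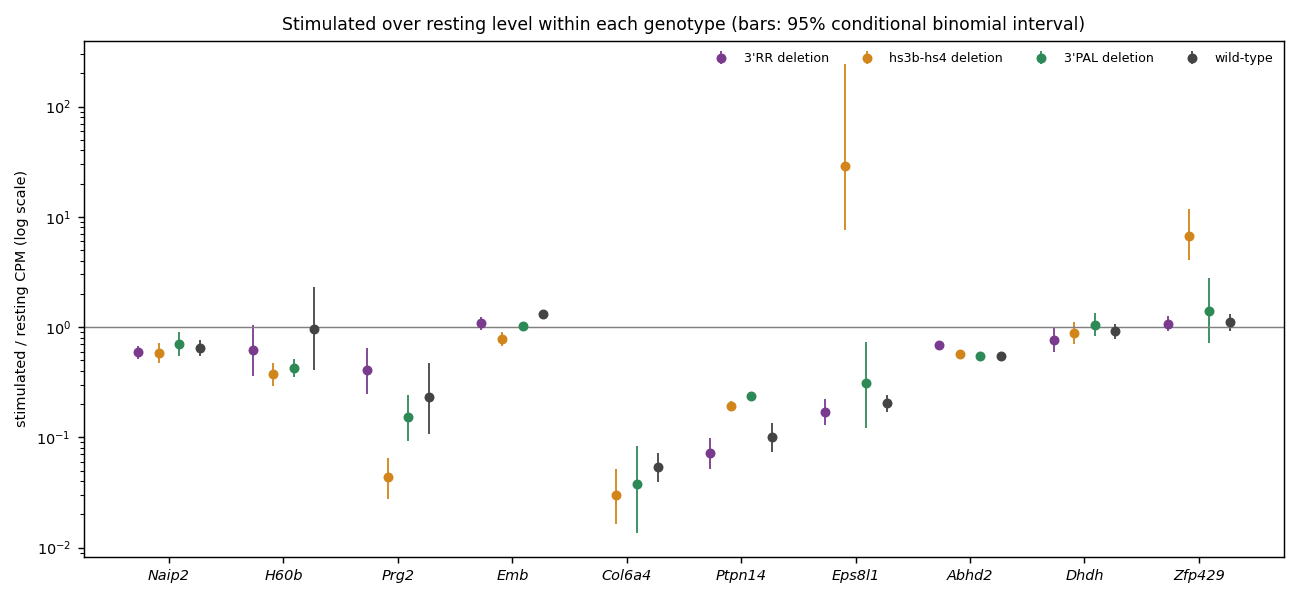
Ratio of the stimulated to the resting level (CPM, log axis) of each gene within each genotype, with exact 95% conditional binomial intervals; Col6a4 with the 3'RR deletion (0 counts stimulated, 1 resting) is not drawn. Points lie below 1 for most genes, and the hs3b-hs4-deleted points of Eps8l1 (28.6) and Zfp429 (6.70) lie above it.

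On a scale per length, TPM as deposited, the order of the genes could be set out within a library. In stimulated wild-type cells Emb had 37.3 TPM and Abhd2 27.1 TPM, followed by Dhdh at 7.60, Zfp429 at 7.31, Eps8l1 at 6.16, Naip2 at 2.46, H60b at 1.43, Prg2 at 0.812, Col6a4 at 0.545 and Ptpn14 at 0.506 TPM. The same list in stimulated 3'PAL-deleted cells began with Emb at 42.8, Abhd2 at 17.5 and H60b at 11.0 TPM. TPM was not compared between libraries. The transcript of Gm15662 held 36.5% of all TPM in the resting wild-type library and 0.395 to 9.69% in the others, and the median of 6557 transcripts was 0.68 to 0.88 higher (log2) in every other library than in resting wild-type.

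The question of whether the differences were limited to single genes was put to the 5 tested genes on either side of each, 100 in all, which the choice had not used. Of these 100 neighbours, 10 (10.0%) passed the edgeR test of any genotype difference at an adjusted p under 0.05, against 2.5% of all tested genes. H60b had 4 such neighbours of 10, Naip2, Prg2, Emb, Abhd2, Dhdh and Zfp429 had 1 each, and Col6a4, Ptpn14 and Eps8l1 had 0. At an unadjusted p under 0.05, each of the last 3 had 1 neighbour of 10. Of all 14744 tested genes 2118 reached that unadjusted p, a larger share than 1 of 10. DESeq2 called 0 for Col6a4, 1 for Ptpn14 and 0 for Eps8l1, against 907 over all genes. Among the 10 tested genes on either side, 11 of 200 (5.5%) passed. The count among the 100 neighbours fell most without the resting or the stimulated 3'RR-deleted library or the resting wild-type library. The count over all tested genes was lower in these fits too.

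**Figure D3:**
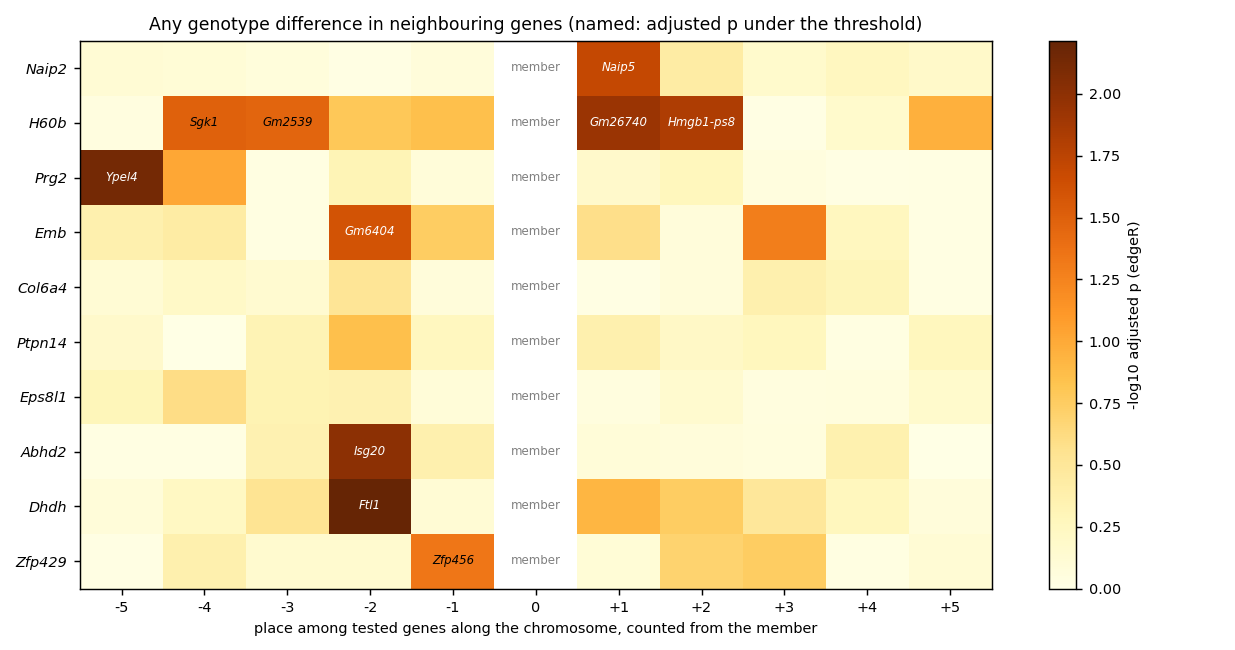
The 5 tested genes on either side of each of the 10 genes, in chromosome order, coloured by -log10 of the adjusted p of any genotype difference (edgeR); genes past the threshold of 0.05 are named. The 10 named neighbours lie beside 7 of the genes, 4 of them beside H60b.

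Around H60b, called neighbours were high in some of the same libraries and low in others. Gm2539, upstream, had 5, 18 and 29 counts in stimulated 3'RR-deleted, hs3b-hs4-deleted and 3'PAL-deleted cells and 0 in wild-type, and 10, 22 and 30 at rest with 0 in wild-type. Hmgb1-ps8, a pseudogene on the opposite strand within the span of H60b, went the other way. It had 127, 44 and 0 counts in these stimulated mutants and 98 in wild-type, and 203, 38 and 0 in the resting mutants and 203 in wild-type. Gm26740, which overlaps H60b on the opposite strand, had 9.62, 3.97 and 2.32 CPM stimulated in the 3'RR-deleted, hs3b-hs4-deleted and 3'PAL-deleted cells, against 7.69 CPM in wild-type, and 18.4, 6.59 and 3.99 CPM at rest, against 23.1 CPM in wild-type. Thus H60b was high where Hmgb1-ps8 and Gm26740 were low. Hmgb1-ps8 lies within the span of Gm26740 on the same strand, and both are counted among the 4 called neighbours of H60b.

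By edgeR, the adjusted p of any genotype difference was 0.012 for Gm26740, 0.015 for Hmgb1-ps8 and 0.034 for Gm2539. Gm26740 fell in 3'PAL-deleted cells by 2.17 ± 0.249 on the log2 scale (SE, adjusted p = 0.019 by edgeR), a call lost without the resting 3'PAL-deleted (0.14), resting wild-type (0.13) or stimulated 3'PAL-deleted (0.075) library. Hmgb1-ps8 lost its call without the stimulated 3'RR-deleted library (adjusted p = 0.052 by edgeR). For Gm2539 the 3'PAL deletion gave an adjusted p of 0.032 by edgeR, which was between 0.059 and 0.19 when any 1 library was left out, and 0.9 with the transcript estimates. Sgk1, a kinase induced by glucocorticoids, was the remaining neighbour and differed in another genotype. It rose in 3'RR-deleted cells by 1.23 ± 0.177 (log2, SE, adjusted p = 0.018 by edgeR), with 10.6 CPM against 4.57 CPM in wild-type when stimulated and 52.2 CPM against 22.1 CPM at rest. Its adjusted p for the 3'RR deletion by edgeR was 0.17, 0.13, 0.10 and 0.10 without the resting 3'RR-deleted, resting wild-type, stimulated 3'RR-deleted and stimulated wild-type library.

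Beside Naip2, its paralog Naip5, a flagellin sensor, was the 1 called neighbour. Naip5 had 6.02, 2.13 and 0.842 CPM in stimulated 3'RR-deleted, hs3b-hs4-deleted and 3'PAL-deleted cells, against 4.10 CPM in wild-type, and 19.5, 3.01 and 2.56 CPM at rest, against 18.0 CPM in wild-type. The adjusted p of any genotype difference was 0.020 by edgeR, with log2 differences from wild-type of 0.30 ± 0.331, -1.80 ± 0.366 and -2.58 ± 0.378 for the 3'RR, hs3b-hs4 and 3'PAL deletions. It was 0.083 without the resting and 0.068 without the stimulated 3'RR-deleted library, and 0.068 and 0.058 without the resting and the stimulated 3'PAL-deleted library. It was also 0.083 with the transcript estimates. Reads of these close paralogs may have been split between them, which makes each count uncertain. Naip6 and Naip1, further along the cluster, did not pass the test (adjusted p = 0.37 and 0.57 by edgeR).

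**Figure D4:**
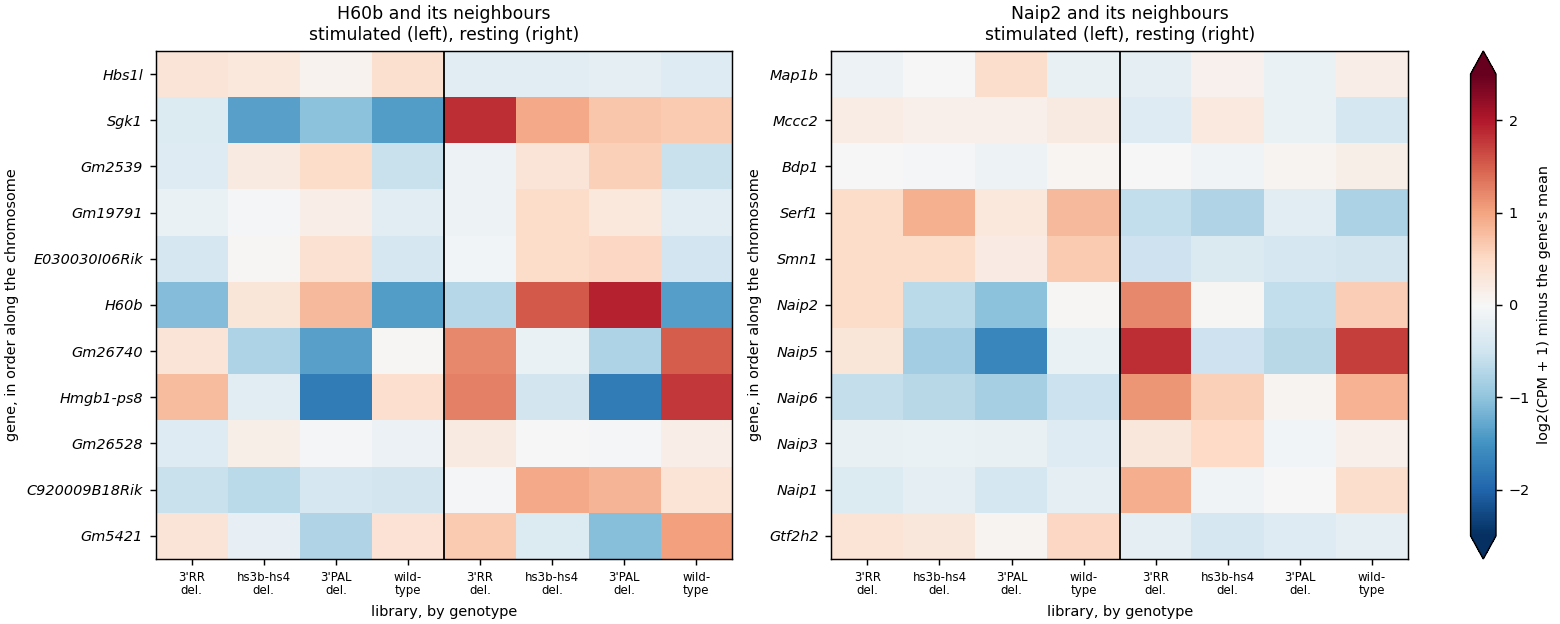
H60b (left) and Naip2 (right) with their 5 tested neighbours on either side in chromosome order, as log2(CPM + 1) minus the mean of the gene over the 8 libraries, stimulated libraries left of resting ones and wild-type last within each state. H60b is above its mean where Hmgb1-ps8 and Gm26740 are below theirs, and Naip2 and Naip5 are both lowest in the stimulated 3'PAL-deleted library, where they had 4.39 and 0.842 CPM.

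The remaining called neighbours lay beside Dhdh, Abhd2, Zfp429, Prg2 and Emb. Ftl1, the ferritin light chain, lies 13.1 kb from Dhdh and was higher in every mutant, with 489, 366 and 380 CPM in stimulated 3'RR-deleted, hs3b-hs4-deleted and 3'PAL-deleted cells against 112 CPM in wild-type, and 842, 708 and 611 CPM at rest against 250 CPM in wild-type. Its log2 differences were 1.94 ± 0.157, 1.6 ± 0.155 and 1.53 ± 0.155 (SE, adjusted p = 0.0017, 0.021 and 0.011 by edgeR). By the transcript estimates the log2 difference of Ftl1 for the hs3b-hs4 deletion was larger, at 3.96. Dhdh itself ran the opposite way. Any genotype difference of Ftl1 was called under all 13 alternatives tried, as was the 3'RR call. The hs3b-hs4 call was lost without the resting 3'RR-deleted (adjusted p = 0.053 by edgeR), hs3b-hs4-deleted (0.19) or wild-type (0.093) library, without the stimulated 3'RR-deleted (0.059), hs3b-hs4-deleted (0.064) or wild-type (0.085) library, and with the transcript estimates (0.051). The 3'PAL call was lost without the resting 3'PAL-deleted (adjusted p = 0.05 by edgeR), resting wild-type (0.1) or stimulated wild-type (0.068) library.

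Isg20, an interferon-induced exonuclease 353 kb from Abhd2, was higher in mutants, at 22.5, 16.3 and 28.6 CPM in stimulated 3'RR-deleted, hs3b-hs4-deleted and 3'PAL-deleted cells against 10.1 CPM in wild-type. At rest it had 21.7, 11.8 and 25.8 CPM in these mutants against 8.71 CPM in wild-type (adjusted p of any genotype difference 0.0099 by edgeR, called under all 13 alternatives). Abhd2 was highest where Isg20 was lowest.

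Zfp456, 13.5 kb from Zfp429 in the same zinc finger cluster, had 9.78, 4.89 and 4.81 CPM in stimulated 3'RR-deleted, hs3b-hs4-deleted and 3'PAL-deleted cells against 8.20 CPM in wild-type, and 10.9, 4.36 and 3.42 CPM at rest against 9.58 CPM in wild-type. The split was that of Zfp429 but shallower, and its adjusted p of any genotype difference was 0.046 by edgeR. That call did not hold without 1 of 7 of the libraries: the adjusted p by edgeR was 0.19, 0.13, 0.071 and 0.078 without the resting 3'RR-deleted, hs3b-hs4-deleted, 3'PAL-deleted and wild-type library, and 0.13, 0.098 and 0.055 without the stimulated 3'RR-deleted, hs3b-hs4-deleted and wild-type library.

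Ypel4, near Prg2, had 2, 0 and 0 counts in stimulated 3'RR-deleted, hs3b-hs4-deleted and 3'PAL-deleted cells and 0 in wild-type, so that its call rested on resting libraries with 377, 31 and 355 counts in these mutants and 7 in wild-type. The adjusted p of any genotype difference was 0.0074 by edgeR, 0.067 without the resting 3'RR-deleted and 0.054 without the resting wild-type library, and 0.19 with DESeq2. Erythroid markers were likewise higher in the resting mutant libraries, and their part in the Ypel4 difference was not tested. Gm6404, 1070 kb from Emb, had 2, 27 and 91 counts in the stimulated 3'RR-deleted, hs3b-hs4-deleted and 3'PAL-deleted libraries and 113 in wild-type. At rest it had 0, 58 and 56 counts in these mutants and 64 in wild-type (adjusted p = 0.025 by edgeR). Its adjusted p by edgeR was 0.12 and 0.078 without the resting and stimulated 3'RR-deleted library, 0.052 and 0.050 without the resting and stimulated wild-type library, and 0.18 with the transcript estimates.

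The families and pathways of the 10 genes were read from lists of 123 relatives, of which 90 were tested. Few of them were called, on a background of 1.97% of all tested genes called in either direction for the 3'RR deletion, 0.142% for the hs3b-hs4 deletion and 0.536% for the 3'PAL deletion. Stimulation, by contrast, called 69.7% of all tested genes (35.7% higher, 34.1% lower), and 22 of the 90 relatives rose and 39 fell. With the 3'RR deletion 2 of 90 rose (background 0.922% of tested genes) and 0 fell (1.04%), with the hs3b-hs4 deletion 0 rose (0.0746%) and 0 fell (0.0678%), and with the 3'PAL deletion 0 rose (0.346%) and 1 fell (0.19%), by edgeR. At an unadjusted p under 0.05 the counts of higher and lower relatives were 15 and 2, 6 and 5, and 3 and 6 for these deletions in turn. Of all 14744 tested genes, 2009, 1303 and 1380 reached that unadjusted p in either direction. DESeq2 called 4 and 0, 0 and 2, and 0 and 2 relatives, against 531, 181 and 254 genes in either direction over all genes. Any genotype difference was called in 4 of 90, on a background of 2.5% of all tested genes, namely Naip5, Nlrc4, Il5ra and Zfp456. Naip5 and Zfp456 were already counted among the called neighbours. That call of Il5ra was lost under 5 of 13 alternatives. List medians of the log2 difference stayed between -0.05 and 0.81 for the 3'RR deletion in all lists but that of Prg2 (1.81), against 0.05 over all tested genes.

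Nlrc4, the partner of Naip2 and Naip5 in the inflammasome, rose in 3'RR-deleted cells by 2.00 ± 0.170 (log2, SE, adjusted p = 0.0022 by edgeR), a call kept under all 13 alternatives. Its call for any genotype difference (adjusted p = 0.0045 by edgeR) was lost without the resting 3'RR-deleted library (0.061). It had 22.7, 9.70 and 8.32 CPM in stimulated 3'RR-deleted, hs3b-hs4-deleted and 3'PAL-deleted cells against 5.5 CPM in wild-type, and 37.6, 15.6 and 10.3 CPM at rest against 9.63 CPM in wild-type. Nlrc4 and Naip2 were both highest in the 3'RR-deleted libraries. Il5ra, the receptor of the eosinophil growth factor IL-5 and also a gene of B-1 cells, rose in 3'RR-deleted cells by 1.81 ± 0.309 (log2, SE, adjusted p = 0.035 by edgeR). Its adjusted p by edgeR was 0.063 and 0.19 without the resting and stimulated 3'RR-deleted library, 0.070 and 0.19 without the resting and stimulated wild-type library and 0.050 without the stimulated hs3b-hs4-deleted library. Of the relatives of Ptpn14 among phosphatases and the Hippo pathway (13 tested), of Eps8l1 (8), of Abhd2 (16), of Dhdh (10), of Emb (7) and of H60b (4), 0 were called for any genotype difference by edgeR. At an unadjusted p under 0.05 they held 1, 1, 2, 0, 1 and 1, and DESeq2 called 1, 0, 0, 0, 0 and 1. For any genotype difference, 2118 of all 14744 tested genes reached that unadjusted p, and DESeq2 called 907 over all genes. None of the 5 other collagen VI genes passed the filter on low counts.

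Genes elsewhere whose levels ran most alike to each of the 10 over the 8 libraries were found by Pearson's r of log2(CPM + 1), the 3 highest per gene with clone and segment names left out. The r of these 30 lay between 0.848 and 0.984. The points share 4 genotypes and 2 states, so a common split gives a high r, and it is given as a description. Only 3 of the 30 lay on the chromosome of the gene they resembled, and 1 within 5 Mb of it. That one was Cpne4, a calcium-dependent membrane-binding copine, 0.955 Mb from Col6a4 (r = 0.964), with 0, 0.642 and 0.211 CPM in stimulated 3'RR-deleted, hs3b-hs4-deleted and 3'PAL-deleted cells against 1.08 CPM in wild-type, and 1.25, 14.4 and 5.58 CPM at rest against 14.1 CPM in wild-type.

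Etohi1, on chromosome 2, ran with Zfp429 (r = 0.963). It had 9.17, 2.53 and 0.105 CPM in stimulated 3'RR-deleted, hs3b-hs4-deleted and 3'PAL-deleted cells against 3.49 CPM in wild-type. At rest it had 6.47, 0 and 0.0814 CPM in these mutants against 3.38 CPM in wild-type. Like Zfp429, Etohi1 came up in the stimulated hs3b-hs4-deleted library, with 63 counts against 0 at rest. With Dhdh ran Ftl2 (r = 0.978), which had 52.8 CPM in stimulated and 70.5 CPM in resting wild-type cells and at most 0.0696 CPM in any mutant library. Reads of Ftl2 and Ftl1, which are nearly the same in sequence, may have been split between them, which makes each count uncertain. Ftl1 was lower in the wild-type cells in which Ftl2 was found.

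**Figure D5:**
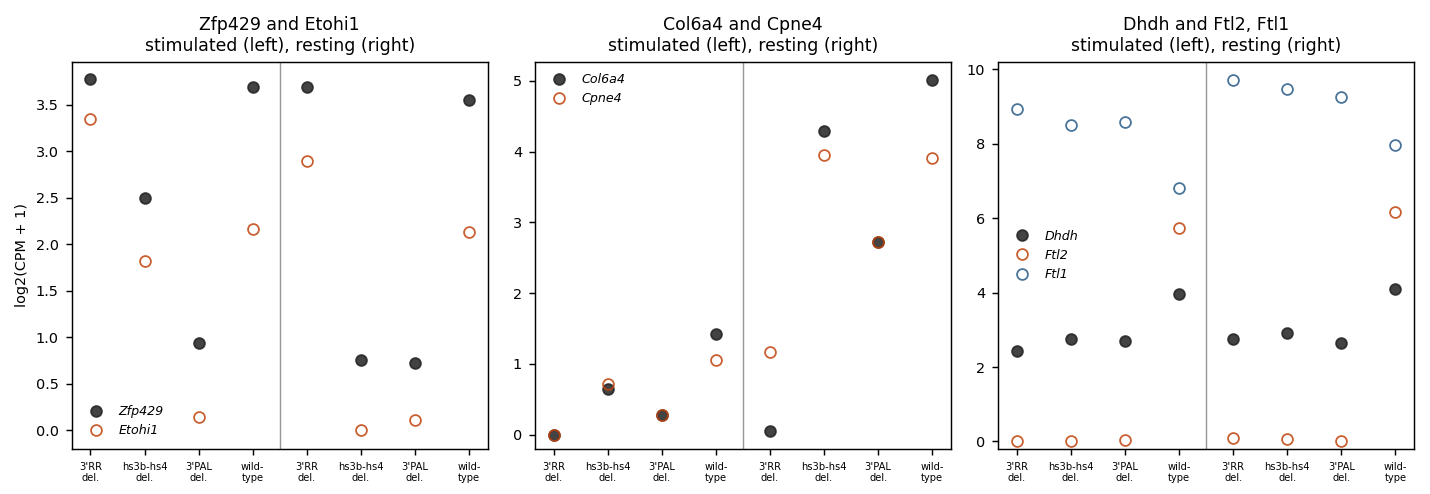
Levels as log2(CPM + 1) of Zfp429 with Etohi1, of Col6a4 with Cpne4 and of Dhdh with Ftl2 and Ftl1 in the 8 libraries, stimulated left of resting and wild-type last within each state. Filled points are the genes described here, and Ftl2 appears in wild-type cells only, where Ftl1 is lowest at 112 CPM stimulated and 250 CPM resting.

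The other genes of like pattern are named here with their r. Naip2 ran with Sfn (r = 0.954), Sox4 (0.953) and Gne (0.946), H60b with Mxra8 (0.951), Cyb5rl (0.943) and Pde8a (0.942), and Ptpn14 with Zfp939 (0.984), Dvl1 (0.966) and Psma8 (0.965). Emb ran with Atp11b (0.949), Cdk5rap1 (0.873) and Rbm41 (0.848), Eps8l1 with Ago3 (0.95), Lpar2 (0.945) and Usp38 (0.941), and Abhd2 with Tubgcp5 (0.970), Taf9 (0.937) and Crtc2 (0.937). Col6a4 ran with Unc45a (0.975) and Npy (0.971), Zfp429 with Ppp1r3e (0.968) and Mri1 (0.96), and Dhdh with Ighg2c (0.96) and Mid1 (0.946). Ighg2c, a heavy chain constant gene on chromosome 12, had 6.18 CPM in stimulated and 10.9 CPM in resting wild-type cells. In any mutant library it had at most 1.12 CPM. Sfn, a 14-3-3 protein, had 16.5, 5.93 and 2.60 CPM in stimulated 3'RR-deleted, hs3b-hs4-deleted and 3'PAL-deleted cells against 6.22 CPM in wild-type, and 23.0, 8.25 and 5.82 CPM at rest against 17.6 CPM in wild-type. Atp11b, a lipid flippase, had 63.6 to 75.8 CPM in all 4 stimulated libraries, so that its likeness to Emb lay in the order of libraries and not in the size of the difference. The 3 genes closest to Prg2 (Oit1, Ctrc and Pcp4l1) had at most 1.46 CPM in any library.

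Among the 10 themselves, r over the 8 libraries was -0.960 between H60b and Zfp429, on chromosomes 10 and 13, which were high in opposite genotypes. It was 0.825 between H60b and Ptpn14, 0.816 between Eps8l1 and Zfp429, 0.833 between Col6a4 and Abhd2 and -0.0337 between H60b and Abhd2. The 3 genes on chromosome 13 did not run together, with r = 0.718 for Naip2 and Zfp429, -0.281 for Emb and Zfp429 and -0.432 for Naip2 and Emb. Nor did those on chromosome 7 form one pattern, with r = 0.762 for Abhd2 and Dhdh, 0.388 for Eps8l1 and Abhd2 and 0.612 for Eps8l1 and Dhdh.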

How the data were processed

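RNA was measured by stranded, ribosome-depleted, paired-end sequencing in 8 libraries, per the labels. The gene table holds raw counts, deposited by the authors and made with STAR 2.4.0a and featureCounts of Subread 1.4.6-p1 on GRCm38 (mm10), per the submitters' processing notes. Estimated counts and TPM per transcript are the authors' kallisto 0.42.3 values. In the TPM file some annotation columns held other content than their headers name; libraries were taken by column name. The sources used here give neither the strand setting of the counting nor an annotation version. An entry without a gene name (0.00621 to 0.0342% of a library) was left out.

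Counts were scaled by TMM (factors 0.925 to 1.09) and tested with edgeR 4.0.16 in R 4.3.3 by the quasi-likelihood method in 1 fit of genotype plus state over all 8 libraries (14744 genes after filterByExpr, residual degrees of freedom 3, BCV 16%). It assumes the same genotype difference in both states, so both libraries of a genotype serve as its replicates and p-values measure only that spread. P-values were adjusted by Benjamini-Hochberg over all genes, threshold 0.05. The fit was checked on simulated data that had the same genotype difference in both states. That check therefore does not bear on the assumption of equal differences. CPM intervals are exact 95% Poisson intervals. Alternatives were other size factors, no filter, DESeq2 1.42.0, rounded estimated counts, leaving out each library, 10 neighbours on either side and a pseudocount of 0.25 in place of 1 CPM.

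The 10 genes, their lists of relatives and the tests were chosen with earlier results of these data known. At most 3 called genes with the lowest adjusted p per gene and comparison were named among neighbours and relatives, and the 3 of highest r among genes of like pattern. Gm2539 was the fourth neighbour of H60b called for any genotype difference and is named for its 3'PAL call; counts of other Naip, marker and overlapping genes are given as context.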

Additional observations from a re-analysis of the deposited data

Results flagged for a closer look

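Stimulated and resting levels of Eps8l1 differed in opposite directions between genotypes, beyond counting error. The difference was not tested because each genotype and state has 1 library, and stimulation cannot be told apart from a difference between pools. The stimulated over resting ratio was 28.6 in hs3b-hs4-deleted cells, where the resting library held 2 counts (6.14 by the transcript estimates), and 0.171 in 3'RR-deleted, 0.314 in 3'PAL-deleted and 0.205 in wild-type cells.

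Emb also moved in opposite directions, by less. Its stimulated over resting ratio was 0.778 in hs3b-hs4-deleted and 1.32 in wild-type cells, with intervals that leave out 1 in both, and this difference was not tested either.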

How the results depend on the processing

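Counts of called genes for the 3'RR, hs3b-hs4 and 3'PAL deletions and for any genotype difference (290, 21, 79 and 368) became 657, 189, 313 and 1037 without a filter on low counts and 531, 181, 254 and 907 with DESeq2, and the cause was not tested. With each library left out in turn, where a genotype left with 1 library is assumed to vary like the others, they ran from 76 to 366, from 1 to 47, from 3 to 111 and from 115 to 331, and the count of called neighbours from 4 to 9. The stimulated against resting count stayed between 9270 and 10453 in all alternatives. The number of genes with a gap of at least 2 was 130 with a pseudocount of 0.25 CPM. The likeness of Taf9 to Abhd2 turned to -0.206 with the transcript estimates, where the cause was not tested. With these estimates the log2 difference of Dhdh from wild-type was -1.02, -0.82 and -0.84 for the 3'RR, hs3b-hs4 and 3'PAL deletions, against -1.62, -1.33 and -1.50 from the gene counts. Of the log2 differences of the 10 genes from wild-type, 1 changed direction: Ptpn14 with the 3'RR deletion was 0.13, and -0.14 in stimulated libraries only. Libraries whose omission moved a count by over 1.5 times were, for the 3'RR deletion, resting and stimulated 3'RR-deleted (76 and 119) and resting and stimulated wild-type (124 and 160). For the hs3b-hs4 deletion they were resting hs3b-hs4-deleted (1), resting wild-type (6), stimulated and resting 3'RR-deleted (8 and 12) and stimulated and resting 3'PAL-deleted (41 and 47). For the 3'PAL deletion they were resting wild-type (3), resting and stimulated 3'PAL-deleted (13 and 41) and resting 3'RR-deleted (52), and for any genotype difference resting and stimulated 3'RR-deleted (115 and 136). Depth limits Col6a4, Prg2, Eps8l1, H60b and Zfp429 most, each with counts under 20 in some library. The stimulated over resting ratios of the 10 genes from the transcript estimates were an alternative chosen after seeing the data. No paired analysis was possible because the labels give the groups no replicate numbers and each group holds 1 library.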

Other observations

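Of 90 tested relatives of the 10 genes, 22 rose and 39 fell in stimulated cells by edgeR, a share near the 69.7% of all tested genes called for stimulation (35.7% higher, 34.1% lower). Among inflammasome genes, Pycard, the adaptor ASC, rose by 1.6 ± 0.107 (log2, SE, adjusted p = 1.9e-05 by edgeR), while the cytokine genes Il1b and Il18 fell by 5.98 ± 0.356 and 3.38 ± 0.317 (adjusted p = 1.3e-05 and 7e-05 by edgeR). Monocyte markers fell in the same libraries to between 2.77 and 8.53 CPM summed, against 255 to 1150 CPM at rest, and their part in these changes was not tested. Ulbp1, an NKG2D ligand gene like H60b, rose by 2.24 ± 0.173 (adjusted p = 3.1e-05 by edgeR) where H60b was lower or level in every stimulated library.

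Of the 7 tested relatives of Emb, which lie elsewhere in the genome, 3 rose and 3 fell in stimulated cells. Bsg, the other chaperone of monocarboxylate transporters, rose by 0.95 ± 0.119 (log2, SE, adjusted p = 0.00028 by edgeR). Slc16a7, a transporter of that family, fell by 2.18 ± 0.195 (adjusted p = 5.5e-05 by edgeR). Of the 13 tested relatives of Ptpn14, 3 rose and 4 fell, against 35.7% and 34.1% of all tested genes. Lats2, a kinase of the Hippo pathway, fell by 1.85 ± 0.108 (adjusted p = 1.2e-05 by edgeR). Ptpn14 was lower in every stimulated library, but its relatives did not fall as a set. Trim28 and Setdb1, the corepressor and histone methyltransferase recruited by KRAB zinc finger proteins, rose by 0.93 ± 0.116 and 0.74 ± 0.098 (adjusted p = 0.00028 and 0.00037 by edgeR).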
